A study of Rattus norvegicus with 9 samples.

Results

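The 10 genes described here encode the core of the cell cycle machinery of the G1 phase: the D-type cyclins (Ccnd1, Ccnd2, Ccnd3), the E-type cyclins (Ccne1, Ccne2), their cyclin-dependent kinases (Cdk2, Cdk4, Cdk6) and inhibitors of the Cip/Kip type (Cdkn1b, Cdkn1c). They were chosen by name, through the RefSeq accessions of the array probes, and each of the 10 was found, with 11 probes among 30356 and 10 of 26905 genes. The samples were prostates of male Sprague Dawley rats, 6 weeks old at the start, with 3 rats on 1 array each in 3 groups. Sham rats had undergone a sham castration, with corn oil under the skin and water by mouth. BPH rats were castrated, were injected with dihydrotestosterone (3 mg/kg daily for 4 weeks) and received water by mouth, as a model of benign prostatic hyperplasia. BPH+ghrelin rats were castrated and injected in the same way and were fed rat ghrelin, the stomach hormone that activates the receptor GHSR, by gavage (20 nmol/kg daily) for the last 2 weeks, although another passage of the study gives a different dose and route. Both BPH groups were therefore without testes, and their androgen came from injection. In the methods, each group held more rats than the 3 used for arrays, and the sources used here do not say which were taken.

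In G1, growth signals raise the D cyclins, which bind CDK4 or CDK6 and start to phosphorylate the retinoblastoma protein and its relatives. Phosphorylation releases E2F transcription factors, cyclin E is made as one of their targets, and cyclin E with CDK2 completes the step into S phase. The products of Cdkn1b (p27) and Cdkn1c (p57) bind and block these kinase complexes. In the prostate, androgens maintain the secretory epithelium and drive its regrowth after castration.

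Each array held 44254 spots, and the values given are quantile normalized log2 signals, on which 1 unit is a 2-fold difference. A level of one gene was not compared with that of another, as probes differ in brightness. Between 69.5% and 75.05% of the probes were well above background on 8 arrays and 61.4% on sham replicate 2, and 0 spots were saturated. All 10 genes were well above background on all 9 arrays, except Ccne2 on sham replicate 2. This array stood apart: it held the lowest sham value for 9 of the 10 genes, all but Cdkn1c, with gaps to the mean of the other sham arrays between -0.25 (Ccnd2) and -1.15 (Ccnd1). Differences of the 10 genes to sham are therefore given with and without it. In each group, 1 array (sham 3, BPH 2, BPH+ghrelin 2) lay between the other arrays of its group for 9 of the 10 genes, and for 68.3% to 72.8% of all probes. By the scan times in the file headers, the 3 BPH arrays shared a scan time with BPH+ghrelin 1, while BPH+ghrelin 2 and 3 shared one with sham 1 and 2, so that no scan held both BPH and sham. Sham 3 had a scan time of its own. The prostate markers Pbsn (probasin) and Sbp were well above background on 9 of 9 arrays. As whole tissue was used, fewer cells of a type and less RNA per cell cannot be told apart.

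Of the 10 genes, Ccne1 spanned the widest range, with group means from 6.98 (sham) to 9.36 (BPH+ghrelin), whereas group means of Cdk2, Cdkn1b and Cdkn1c stayed within 0.40 of each other in every comparison. Arrays of the sham group scattered most in Ccnd1, Cdk4 and Ccnd3 (SD 0.69, 0.68 and 0.56), in each of which sham replicate 2 was the lowest array. BPH arrays scattered most in Ccne1 (SD 0.95), and BPH+ghrelin arrays were closest to each other in Cdkn1b (SD 0.034).

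**Figure D1:**
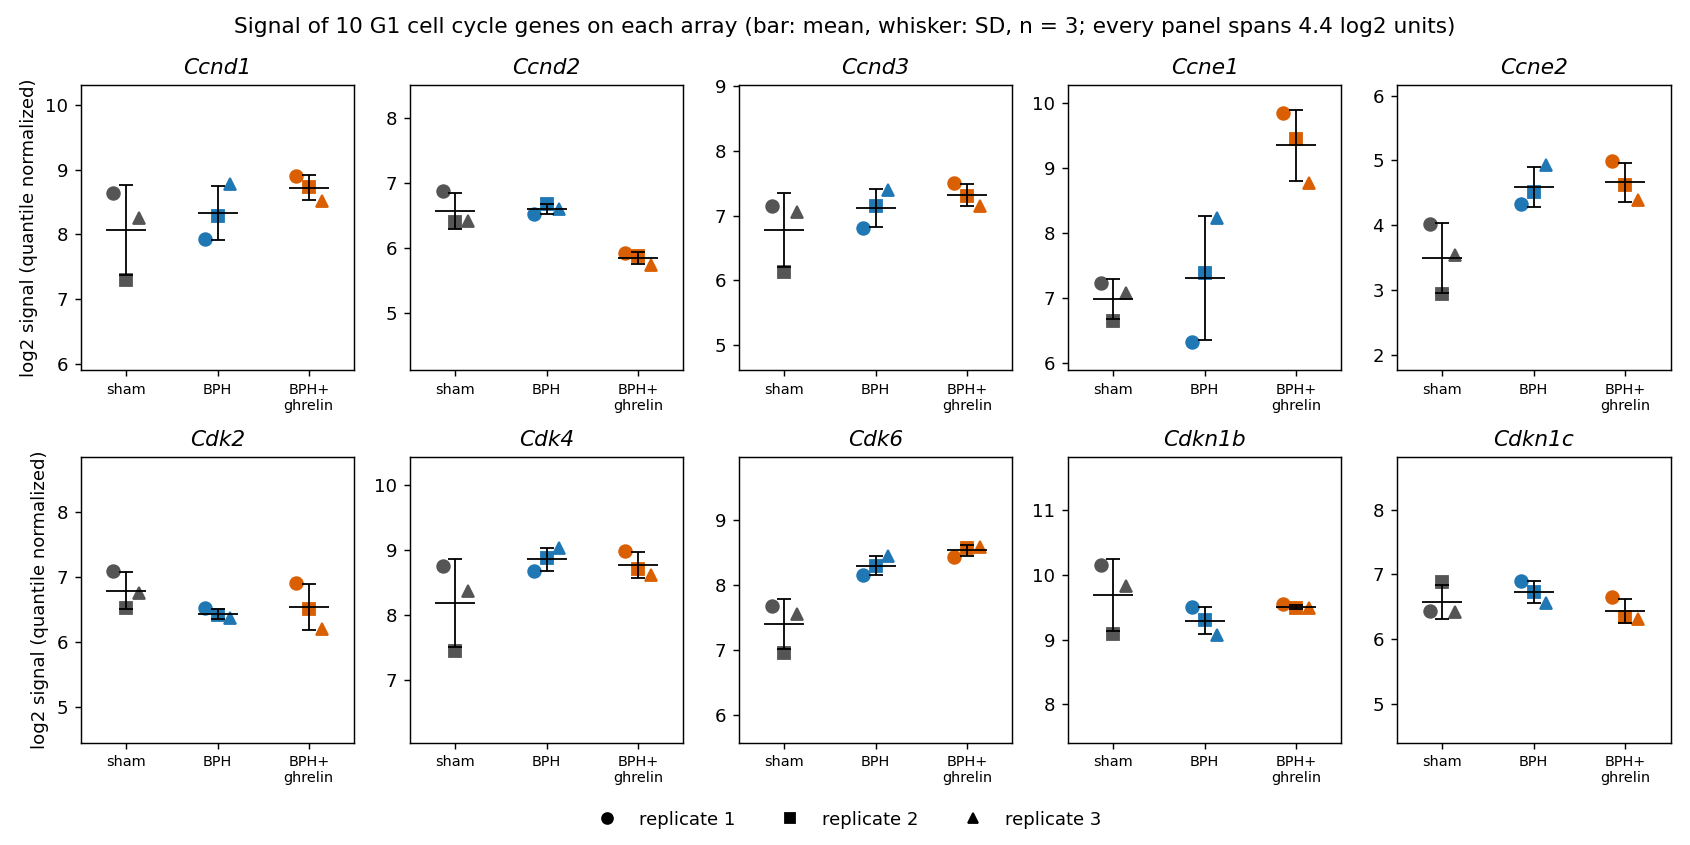
Normalized log2 signal of each of the 10 genes (vertical axis, each panel spanning the same number of log2 units) on the 3 arrays of sham, BPH and BPH+ghrelin, with the mean as a bar and the SD as whiskers (n = 3). Ccne1 lay between 8.77 and 9.85 in BPH+ghrelin against 6.32 to 8.23 in BPH, Ccnd2 was lower in BPH+ghrelin (5.75 to 5.93) than on each of the other 6 arrays, and Cdk6 was higher in both BPH groups than in sham.

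BPH was compared with sham to ask how castration with androgen injection altered these genes. Of the 10 genes, 8 had a higher and 2 (Cdk2, Cdkn1b) a lower mean in BPH, with a median log2 fold change of 0.29, against 0.039 over all 19552 genes tested. With sham replicate 2 left out, 6 were higher and 4 lower, with a median of 0.083 (0.12 to 0.49 without each of the other 5 arrays). Cdk6 was the only one that passed an adjusted p under 0.05 (limma, Benjamini-Hochberg over all genes), which 4.33% of all genes tested did. Values of both groups did not overlap in 3 genes (Ccne2 and Cdk6 higher, Cdk2 lower), a pattern seen in 31.3% of all genes. A difference of at least 2-fold was found in 1 gene, Ccne2, compared to 8.16% of all genes. Leaving out that array, 5 genes did not overlap (42.5% of all genes) and 0 differed at least 2-fold (5.16%).

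BPH+ghrelin was compared with BPH to ask what oral ghrelin added. Here, 7 genes had a higher and 3 (Ccnd2, Cdk4, Cdkn1c) a lower mean, with a median of 0.16, against 0.015 over all 19749 genes. Without BPH+ghrelin replicate 1, 5 were higher and 5 lower (median 0.020), and without BPH replicate 1 the median was 0.10. In limma, 0 of the 10 passed an adjusted p under 0.05 (1.48% of all genes did), while 2 genes, Ccne1 and Ccnd2, had an unadjusted p under 0.05, as did 21.1% of all genes. In both, the BPH+ghrelin arrays lay wholly on one side of the BPH arrays, as was the case for 39.2% of all genes. By the fold criterion of the study without a test, 1 gene (Ccne1) differed at least 2-fold, against 6.1% of all genes.

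BPH+ghrelin was also compared with sham, which contains both treatments together. The adjusted threshold was passed by 3 genes, Ccne1 and Cdk6 being higher and Ccnd2 lower, whereas 6.3% of all 19197 genes tested passed it. Groups did not overlap in 4 genes (Ccne1, Ccne2, Cdk6, Ccnd2), against 30.4% of all genes, and 3 genes (Ccne1, Ccne2, Cdk6) differed at least 2-fold, against 7.41%. The median log2 fold change was 0.56, with 6 genes higher and 4 lower, and the median of all genes was 0.041. When sham replicate 2 was left out, the median of the 10 was 0.21, with 7 higher and 3 lower, 5 did not overlap (49% of all genes) and 1, Ccne1, differed at least 2-fold. The 3 comparisons share arrays with each other and are not independent.

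**Figure D2:**
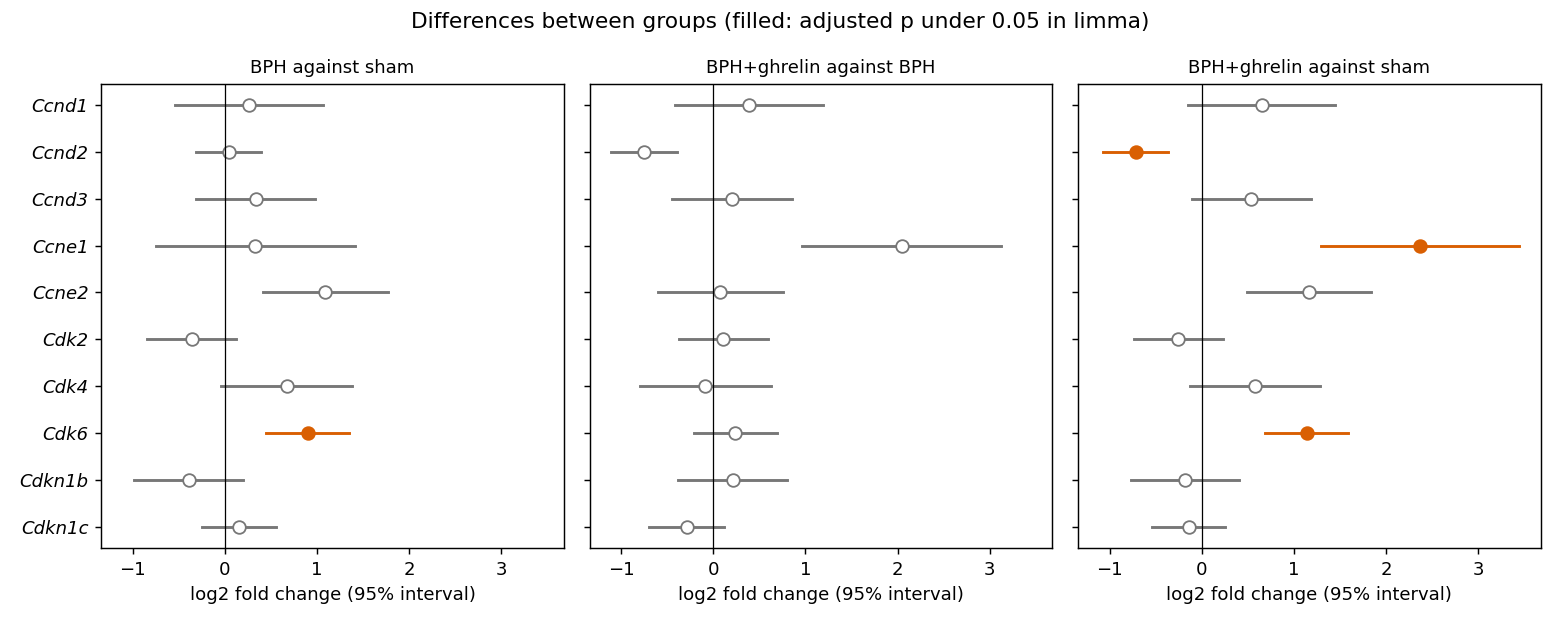
Log2 fold change (horizontal axis, points) of each gene in the 3 comparisons with 95% intervals as lines, estimated in limma from 9 arrays. Filled points passed an adjusted p under 0.05: Cdk6 in BPH against sham (0.90), and Ccne1 (2.37), Cdk6 (1.14) and Ccnd2 (-0.72) in BPH+ghrelin against sham, while in BPH+ghrelin against BPH the intervals of Ccne1 and Ccnd2 lay apart from 0 without passing.

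Among the D cyclins, which couple growth signals to CDK4 and CDK6, Ccnd2 (cyclin D2) was the only one that passed the threshold in a comparison. Its log2 signal was 6.88, 6.40 and 6.41 in sham, 6.53, 6.68 and 6.60 in BPH, and 5.93, 5.87 and 5.75 in BPH+ghrelin. All 3 BPH+ghrelin arrays were thus below the lowest of the other 6 arrays, and sham and BPH overlapped. Compared to sham, Ccnd2 fell by 0.72 on the log2 scale in BPH+ghrelin (standard error 0.15, adjusted p 0.0361 in limma). Compared to BPH, the difference was of similar size (-0.76, standard error 0.16, 95% interval -1.11 to -0.40) but missed the threshold (adjusted p 0.0583), and the mean of BPH differed from that of sham by only 0.040 (interval -0.32 to 0.40; -0.043 without sham replicate 2).

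The Ccnd2 call against sham held without sham replicate 2 (-0.80, adjusted p 0.0259) and without sham replicate 1, but not without sham replicate 3 (-0.79, adjusted p 0.0912) or without BPH+ghrelin replicate 1, 2 or 3 (-0.76, -0.73 and -0.67; adjusted p 0.0845, 0.135 and 0.105). Over all alternatives of processing, its adjusted p against sham was 0.0215 to 0.195. Against BPH it was 0.0383 to 0.44, with a call only after 75th percentile scaling (-0.84, adjusted p 0.0399) and after normexp background correction (-0.38, adjusted p 0.0383). The smaller size after normexp goes with the offset of 50 that it adds to every signal.

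Ccnd1 and Ccnd3, encoding cyclins D1 and D3, were similar to each other across the arrays (Pearson r 0.976 over 9 arrays, which share the group means and the low sham replicate 2). Ccnd1 was 8.64, 7.30 and 8.26 in sham, 7.93, 8.28 and 8.77 in BPH, and 8.90, 8.73 and 8.52 in BPH+ghrelin. Ccnd3 was 7.15, 6.13 and 7.05 in sham, 6.81, 7.14 and 7.39 in BPH, and 7.50, 7.30 and 7.15 in BPH+ghrelin. Group means of both genes stood in the order sham, BPH, BPH+ghrelin, but neighbouring groups overlapped. The log2 fold change of Ccnd1 was 0.26 in BPH against sham (interval -0.54 to 1.06) and 0.39 in BPH+ghrelin against BPH (interval -0.41 to 1.19). That of Ccnd3 was 0.33 (interval -0.31 to 0.98) and 0.20 (interval -0.44 to 0.85), and adjusted p in limma was 0.465 to 0.704 for both genes. BPH+ghrelin minus sham was 0.65 for Ccnd1 (interval -0.15 to 1.45, adjusted p 0.301) and 0.54 for Ccnd3 (interval -0.11 to 1.18, adjusted p 0.290), and BPH+ghrelin arrays overlapped sham in both. Without sham replicate 2, the difference of BPH to sham was -0.12 for Ccnd1 and 0.0093 for Ccnd3, and that of BPH+ghrelin to sham was 0.27 and 0.21.

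Of the E cyclins, which activate CDK2, Ccne1 showed the largest difference among the 10 genes. Ccne1 encodes cyclin E1 and is one of the genes that the study selected on these same arrays, so that its value in BPH+ghrelin against BPH is not independent evidence. It was 7.23, 6.64 and 7.08 in sham, 6.32, 7.38 and 8.23 in BPH, and 9.85, 9.45 and 8.77 in BPH+ghrelin. The 3 BPH+ghrelin arrays lay above each of the other 6 arrays, while the BPH arrays ranged from below the lowest to above the highest sham array. Compared to sham, Ccne1 rose 5.18-fold in BPH+ghrelin (log2 fold change 2.37, standard error 0.47, adjusted p 0.0272 in limma). Compared to BPH, the estimate was 4.13-fold (2.04, standard error 0.47, interval 0.96 to 3.12), and it did not pass (adjusted p 0.0737). BPH and sham differed by 0.33 (interval -0.75 to 1.41, adjusted p 0.676).

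Single arrays decided the calls of Ccne1. BPH replicate 3 was the BPH array nearest to the ghrelin group, and without it the difference to BPH was 2.50 and passed (adjusted p 0.0435, over all alternatives 0.0435 to 0.339). Without BPH replicate 1, the lowest BPH array, it was 1.55 (adjusted p 0.176). The call against sham was lost without BPH+ghrelin replicate 1 or 2 (2.13 and 2.32; adjusted p 0.0893 and 0.113) and without sham replicate 3 (2.42, adjusted p 0.0965), and it held without sham replicate 2 (2.20, adjusted p 0.0449). Over the alternatives, the adjusted p against sham was 0.0186 to 0.236. BPH minus sham was 0.16 without sham replicate 2, and it turned from 0.33 to -0.13 without BPH replicate 3.

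Ccne2, encoding cyclin E2, had the same order of group means as Ccne1 but a different spacing. It was 4.02, 2.94 and 3.54 in sham, 4.33, 4.51 and 4.93 in BPH, and 4.99, 4.63 and 4.39 in BPH+ghrelin. Both BPH groups lay above sham without overlap, and they overlapped each other. The log2 fold change was 1.09 in BPH against sham (standard error 0.30, interval 0.41 to 1.77, adjusted p 0.0748) and 1.17 in BPH+ghrelin against sham (standard error 0.29, interval 0.49 to 1.84, adjusted p 0.0562). Neither passed in limma with all arrays, and BPH+ghrelin minus BPH was 0.075 (interval -0.60 to 0.75). Without sham replicate 2, on which the probe was not well above background, the differences to sham were 0.81 and 0.89 (adjusted p 0.112 and 0.0672). Without sham replicate 1, both passed (1.35 and 1.43; adjusted p 0.0254 and 0.0294), within a range over alternatives of 0.0254 to 0.964 and 0.0294 to 0.341. After normexp background correction, which adds an offset of 50 to every signal, the differences to sham were 0.22 in both comparisons.

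The bases next to the start of 3 genes are shown as context for these expression patterns, from the RefSeq promoter table (assembly GRCr8), which spans 250 bases before to 50 bases after each start. The table held 5 of the 10 genes (Ccnd3, Ccne1, Cdk2, Cdk4, Cdkn1b). Both strands were searched for the 8-letter forms TTTCCCGC, TTTCGCGC, TTTGCCGC and TTTGGCGC, as letters of the E2F site, for CACGTG, the letters of the E-box that MYC binds, and for the GC box GGGCGG. Ccne1 is shown as the gene with the largest difference, Cdk4 as the only one of the 5 with CACGTG, and Mcm6, a subunit of the replicative helicase called in 2 comparisons, as one with E2F letters. Each sequence is written 5′ to 3′ in the direction of the gene and lies outside its annotated transcript, and capitals mark the GC box (Ccne1), CACGTG (Cdk4) and a pair of overlapping E2F matches on opposite strands (Mcm6).
Ccne1, chr1:99927987-99928159, minus strand: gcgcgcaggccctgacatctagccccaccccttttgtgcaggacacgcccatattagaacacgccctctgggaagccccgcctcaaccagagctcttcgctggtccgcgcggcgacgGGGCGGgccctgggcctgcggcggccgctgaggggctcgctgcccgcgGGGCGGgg
Cdk4, chr7:64771203-64771452, plus strand: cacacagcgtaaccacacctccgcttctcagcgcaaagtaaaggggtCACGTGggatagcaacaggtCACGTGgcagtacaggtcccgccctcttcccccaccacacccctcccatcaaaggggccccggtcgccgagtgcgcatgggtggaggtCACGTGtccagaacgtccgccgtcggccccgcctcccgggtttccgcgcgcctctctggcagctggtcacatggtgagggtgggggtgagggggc
Mcm6, chr13:42404353-42404602, minus strand: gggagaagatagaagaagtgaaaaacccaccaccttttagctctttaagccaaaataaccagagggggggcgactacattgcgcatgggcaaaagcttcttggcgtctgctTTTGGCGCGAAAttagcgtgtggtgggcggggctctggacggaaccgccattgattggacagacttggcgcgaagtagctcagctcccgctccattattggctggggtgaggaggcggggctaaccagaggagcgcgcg

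In these windows, E2F letters were present in 0 of the 5 genes, against 2.14% of all 33469 promoters in the table, and, in other lists of G1/S genes, in 6 of 8 promoters of S phase targets, 3 of 8 of pocket protein and E2F genes, 2 of 8 of activators, docking and turnover genes and 0 of 5 of further CDK inhibitors. CACGTG was present in 1 of 5 (3 times in Cdk4), against 6.42% of all promoters, and the GC box in 5 of 5, against 33.1%. In the same order of lists, the GC box was in 7 of 8, 5 of 8, 6 of 8 and 4 of 5, so that it was common in these lists as well. The S phase list was chosen as E2F targets, so that E2F letters in its promoters are not an independent result. Each list counts 1 promoter per gene, whereas the share of all promoters counts every promoter in the table. A match is a run of letters and not a measured binding site, and other forms of these sites were not searched.

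Among the kinases, Cdk6 differed between the groups, whereas Cdk4 and Cdk2 did not pass in any comparison. Cdk6 encodes a partner of the D cyclins. It was 7.68, 6.96 and 7.56 in sham, 8.16, 8.29 and 8.45 in BPH, and 8.44, 8.58 and 8.60 in BPH+ghrelin. Each array of both BPH groups was above each sham array, and the BPH groups overlapped narrowly (highest BPH array 8.45, lowest BPH+ghrelin array 8.44). Cdk6 rose 1.87-fold in BPH against sham (log2 fold change 0.90, standard error 0.20, adjusted p 0.0447 in limma) and 2.20-fold in BPH+ghrelin against sham (1.14, standard error 0.20, adjusted p 0.0179). BPH+ghrelin minus BPH was 0.24 (interval -0.21 to 0.69, adjusted p 0.512).

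Without sham replicate 2, the lowest array, Cdk6 still passed against sham, with smaller differences (0.68, adjusted p 0.034, for BPH, and 0.92, adjusted p 0.00908, for BPH+ghrelin). In BPH against sham, the call was lost without BPH replicate 1, 2 or 3 (0.97, 0.90 and 0.82; adjusted p 0.0702, 0.176 and 0.125) and without sham replicate 3 (0.98, adjusted p 0.119). The call of BPH+ghrelin against sham was lost without BPH+ghrelin replicate 1, 2 or 3 (1.19, 1.12 and 1.11; adjusted p 0.0524, 0.0895 and 0.0569) and without sham replicate 3 (1.22, adjusted p 0.0579). Over all alternatives, the adjusted p was 0.023 to 0.65 and 0.00908 to 0.148, and the difference to sham was positive in each of 13 alternatives of both comparisons.

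Cdk4, the other partner of the D cyclins, was 8.75, 7.44 and 8.37 in sham, 8.67, 8.87 and 9.03 in BPH, and 8.99, 8.71 and 8.61 in BPH+ghrelin. The difference to sham was 0.67 in BPH (interval -0.041 to 1.38, adjusted p 0.209) and 0.58 in BPH+ghrelin (interval -0.13 to 1.29, adjusted p 0.297). These rested largely on sham replicate 2, without which they were 0.29 and 0.20. BPH+ghrelin minus BPH was -0.089 (interval -0.80 to 0.62), with overlapping arrays.

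Cdk2, the kinase bound by cyclin E, was measured on 10 spots per array, whose SD on the log2 scale was 0.048 to 0.144. It was 7.09, 6.53 and 6.75 in sham, 6.52, 6.41 and 6.36 in BPH, and 6.90, 6.50 and 6.20 in BPH+ghrelin. BPH lay just below sham without overlap (-0.36, interval -0.84 to 0.12, adjusted p 0.301), by a gap smaller than the spread of the spots. BPH+ghrelin overlapped both groups, with differences of 0.11 to BPH (interval -0.37 to 0.59) and -0.25 to sham (interval -0.73 to 0.23). Without sham replicate 2, the differences to sham were -0.49 in BPH (adjusted p 0.213) and -0.38 in BPH+ghrelin (adjusted p 0.273). The scatter within BPH+ghrelin (SD 0.35) was larger than the differences of BPH+ghrelin to sham and to BPH with all arrays.

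Neither inhibitor passed the threshold in any comparison. Cdkn1b (p27), also on 10 spots per array with an SD of 0.032 to 0.12, was 10.15, 9.08 and 9.83 in sham, 9.50, 9.31 and 9.07 in BPH, and 9.54, 9.48 and 9.49 in BPH+ghrelin. The log2 fold change was -0.40 in BPH against sham (interval -0.98 to 0.19, adjusted p 0.349) and 0.21 in BPH+ghrelin against BPH (interval -0.38 to 0.80, adjusted p 0.662). In contrast to Cdk4 and Cdk6, leaving out sham replicate 2 made the difference of BPH to sham larger (-0.70, adjusted p 0.0535), since that array lay at the level of the lowest BPH array and the other sham arrays were above all 6 remaining arrays. BPH+ghrelin minus sham was -0.18 (interval -0.77 to 0.40, adjusted p 0.715) with all arrays and -0.49 (adjusted p 0.0922) without sham replicate 2.

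Cdkn1c (p57) had 2 probes. The brighter one, which represented the gene, was 6.44, 6.88 and 6.42 in sham, 6.90, 6.73 and 6.55 in BPH, and 6.65, 6.34 and 6.32 in BPH+ghrelin. Its differences were 0.15 in BPH against sham (interval -0.25 to 0.55), -0.29 in BPH+ghrelin against BPH (interval -0.69 to 0.11) and -0.14 in BPH+ghrelin against sham (interval -0.54 to 0.26), with overlap throughout. Without sham replicate 2, the differences to sham were 0.30 in BPH and 0.0081 in BPH+ghrelin. The other probe was 4.73, 7.13 and 5.73 in sham, 5.85, 5.44 and 4.99 in BPH, and 4.71, 4.89 and 5.03 in BPH+ghrelin. It gave a negative difference in BPH against sham (-0.43), opposite in sign to the first probe, -0.55 in BPH+ghrelin against BPH and -0.99 in BPH+ghrelin against sham, with overlap throughout. The opposite sign rested on sham replicate 2, without which the differences to sham were 0.20 in BPH and -0.35 in BPH+ghrelin. Sham replicate 2 was the highest of all 9 arrays on this second probe and the highest sham array on the first, in contrast to the other 9 genes.

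Within 1 scan, only part of the groups could be compared, and these values have no test. In the scan shared with the BPH arrays, BPH+ghrelin replicate 1 minus the mean of 3 BPH arrays was 2.54 for Ccne1 and -0.68 for Ccnd2. This array lay outside the range of the BPH arrays in 7 of the 10 genes, these included, as it did in 67.5% of all genes. In the scan shared with sham, the mean of 2 BPH+ghrelin arrays minus that of 2 sham arrays was 2.17 for Ccne1, -0.83 for Ccnd2, 1.27 for Cdk6 and 1.02 for Ccne2. There was no overlap in these 4 genes, nor in Cdk2 (-0.46) and Cdkn1c (-0.33), making 6 of the 10, against 40.5% of all genes. For Cdk6, BPH+ghrelin replicate 1 lay within the range of the BPH arrays (0.14). Differences of these genes between BPH+ghrelin and sham thus had the same sign within a scan as over all arrays. With scan as a block in limma, 0 of the 10 genes passed in any comparison. Few of all genes passed in that fit: 2 of 19552 in BPH against sham and 2 of 19749 in BPH+ghrelin against BPH. In BPH+ghrelin against sham, 84 of 19197 genes passed in it. For BPH against sham, scan and group cannot be told apart within a scan. Sham replicate 3 was the only array in its scan, so that it does not enter the differences to sham in the fit with scan as a block. Sham is represented there by replicates 1 and 2 only.

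Expression patterns across the 9 arrays were compared with those of 11161 other genes, as a description. Most like Ccne1 were Sapcd2 (Pearson r 0.998), Cks2 (0.995), which encodes a small subunit of CDK complexes, and Phlda2 (0.994). Most like Ccnd2 were Pon2 (0.976), Sdhd (0.966) and Ephx2 (0.965). Cdk6 resembled Prr7 (0.993), Dgat1 (0.991) and Tm7sf2 (0.990), and Ccne2 resembled Knl1 (0.995), a kinetochore gene. Among the 10 genes themselves, the closest pairs were Ccnd1 and Ccnd3 (0.976), Ccne2 and Cdk6 (0.930) and Ccnd3 and Cdk4 (0.924), and the most opposed pair was Ccnd2 and Ccne1 (-0.734). The 9 points share their group means and the low sham replicate 2, and each named gene is the highest of many compared.

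**Figure D3:**
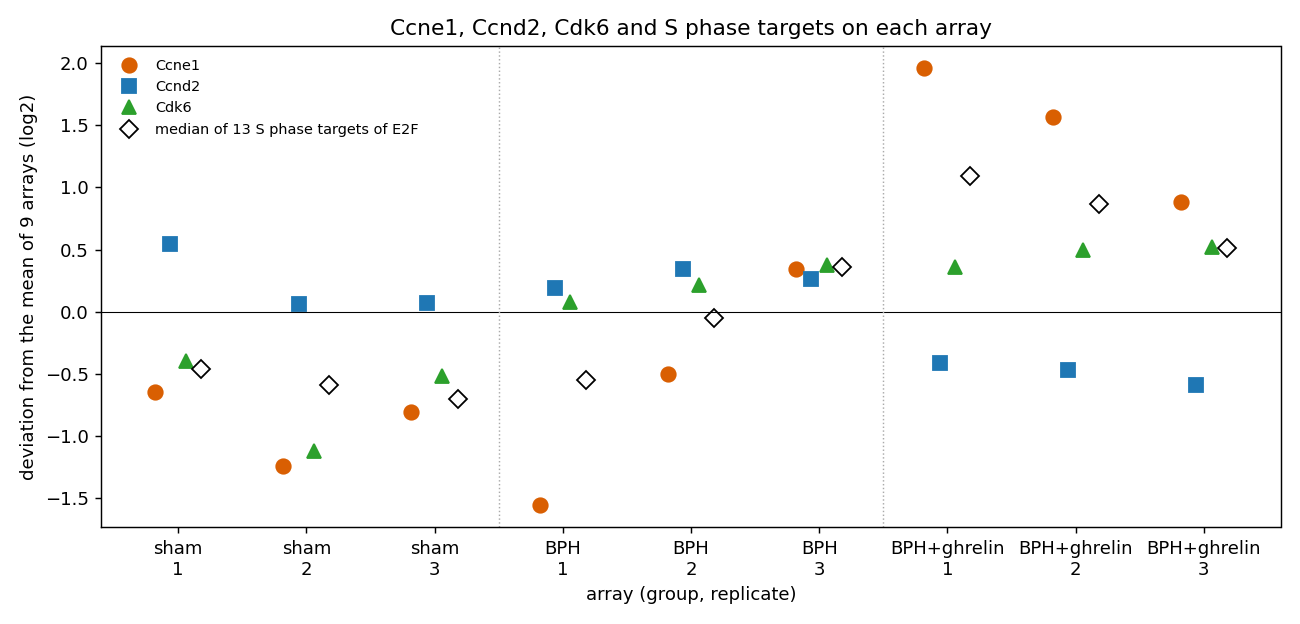
Deviation of Ccne1, Ccnd2 and Cdk6 (log2 units, vertical axis) from their mean of 9 arrays on each array, with the median deviation of 13 S phase targets of E2F as open diamonds. In BPH+ghrelin, the S phase median was 1.09, 0.87 and 0.51 on the arrays where Ccne1 was 9.85, 9.45 and 8.77, and it was -0.55, -0.054 and 0.36 in BPH.

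The genes around these 10 in the G1/S network were taken from 4 lists with 48 genes, of which 39 had a probe with that symbol and 37 could be tested. In BPH against sham, 33 of the 37 were higher and 4 lower, with a median log2 fold change of 0.34. The adjusted threshold was passed by 3: Mcm6 (1.29, adjusted p 0.0395) and Fbxo4, an F-box protein of cyclin D turnover (0.57, adjusted p 0.0476), were higher, and E2f7, a repressor of E2F targets, was lower (-0.93, adjusted p 0.0422). Between BPH+ghrelin and BPH, 26 were higher and 11 lower (median 0.30), and 1 passed, Mcm3 of the replicative helicase (1.12, adjusted p 0.0349). Relative to sham, 31 genes were higher and 6 lower in BPH+ghrelin (median 0.63), and 11 passed, 10 of them higher. Of all genes tested, 4.33%, 1.48% and 6.3% passed in the 3 comparisons. With each array left out, the medians of the 37 genes were 0.23 (without BPH replicate 3) to 0.44, 0.19 (without BPH replicate 1) to 0.45, and 0.49 to 0.70.

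Without sham replicate 2, 0 of the 3 calls in BPH against sham held (Mcm6 1.34, Fbxo4 0.58, E2f7 -0.78; adjusted p 0.0549, 0.0575 and 0.0609), 12 of the 37 genes having an unadjusted p under 0.05 with all arrays, against 26.5% of all genes. Of the 11 calls in BPH+ghrelin against sham, 8 held without that array, and those of E2f7 (-0.71), Skp2 (1.22) and Ccna2 (2.17) did not (adjusted p 0.0556, 0.057 and 0.0559). Over the 6 fits that each left out 1 array, the calls in BPH against sham held in 1 (E2f7), 2 (Fbxo4) and 2 (Mcm6). Without each array of the pair of groups in turn, the number of calls was 0 to 6 in BPH against sham, 0 to 3 in BPH+ghrelin against BPH and 2 to 11 in BPH+ghrelin against sham. Of all genes, 0.609% to 15.7%, 0.0152% to 2.02% and 1.16% to 10% were called in the same fits. Mcm3 in BPH+ghrelin against BPH was called again only without BPH replicate 3, and its adjusted p was 0.0815 to 0.178 without each of the other 5 arrays.

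By role, differences to sham were largest among 13 tested S phase targets of E2F, whose products copy DNA. Of these, 13 of 13 were higher in BPH+ghrelin than in sham (median 1.56), and 6 passed, among them Cdc6 (2.51, adjusted p 0.0195) and Mcm6 (2.01, adjusted p 0.0064), which license and open replication origins, Mcm3 (1.56, adjusted p 0.0038), the cyclin Ccna2 (2.50, adjusted p 0.0355) and the sliding clamp Pcna (0.82, adjusted p 0.0191). Ghrelin-treated BPH rats had 12 of 13 higher than BPH rats (median 0.91), with 1 call, and in BPH against sham 13 of 13 were higher (median 0.44), with 1 call. With each array left out, these medians were 1.40 to 1.64 in BPH+ghrelin against sham, 0.56 (without BPH replicate 1) to 1.12 in BPH+ghrelin against BPH, and 0.24 (without BPH replicate 3) to 0.70 (without BPH replicate 1) in BPH against sham. Of 10 activators, docking and turnover genes, Cks2 (2.07, adjusted p 0.0293) and Fbxo4 (0.66, adjusted p 0.0252) were higher in BPH+ghrelin than in sham. Skp2, which marks p27 for degradation, also passed there (1.49, adjusted p 0.0409), but only 1 of 3 sham arrays held it well above background, and it entered the test mainly through the 3 BPH+ghrelin arrays. Its call held in 2 of 13 alternatives, and the difference was 0.20 after normexp. Of 9 pocket protein and E2F genes, E2f1 was higher (1.22, adjusted p 0.033) and E2f7 lower (-0.87, adjusted p 0.0432). The E2f1 call and the E2f7 call each held in 4 of 13 alternatives. With each array left out in turn, 6 fits in all, the named calls of BPH+ghrelin against sham differed in how often they held. They held in 1 fit (Ccna2, E2f1, E2f7, Skp2), 2 fits (Cks2, Fbxo4), 3 fits (Cdc6, Pcna) or 6 fits (Mcm3, Mcm6). In limma, 0 of 5 further CDK inhibitors passed in any comparison, with 1, 1 and 3 at an unadjusted p under 0.05 (26.5%, 21.1% and 23.7% of all genes). All 5 had a higher mean than sham in BPH (median 0.36) and in BPH+ghrelin (median 0.61). Against BPH, 3 were higher and 2 lower in BPH+ghrelin (median 0.30). Sham replicate 2 was low for this list, with a median deviation of -0.82 from the mean of 9 arrays, against -0.043 and -0.27 on sham replicates 1 and 3.

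**Figure D4:**
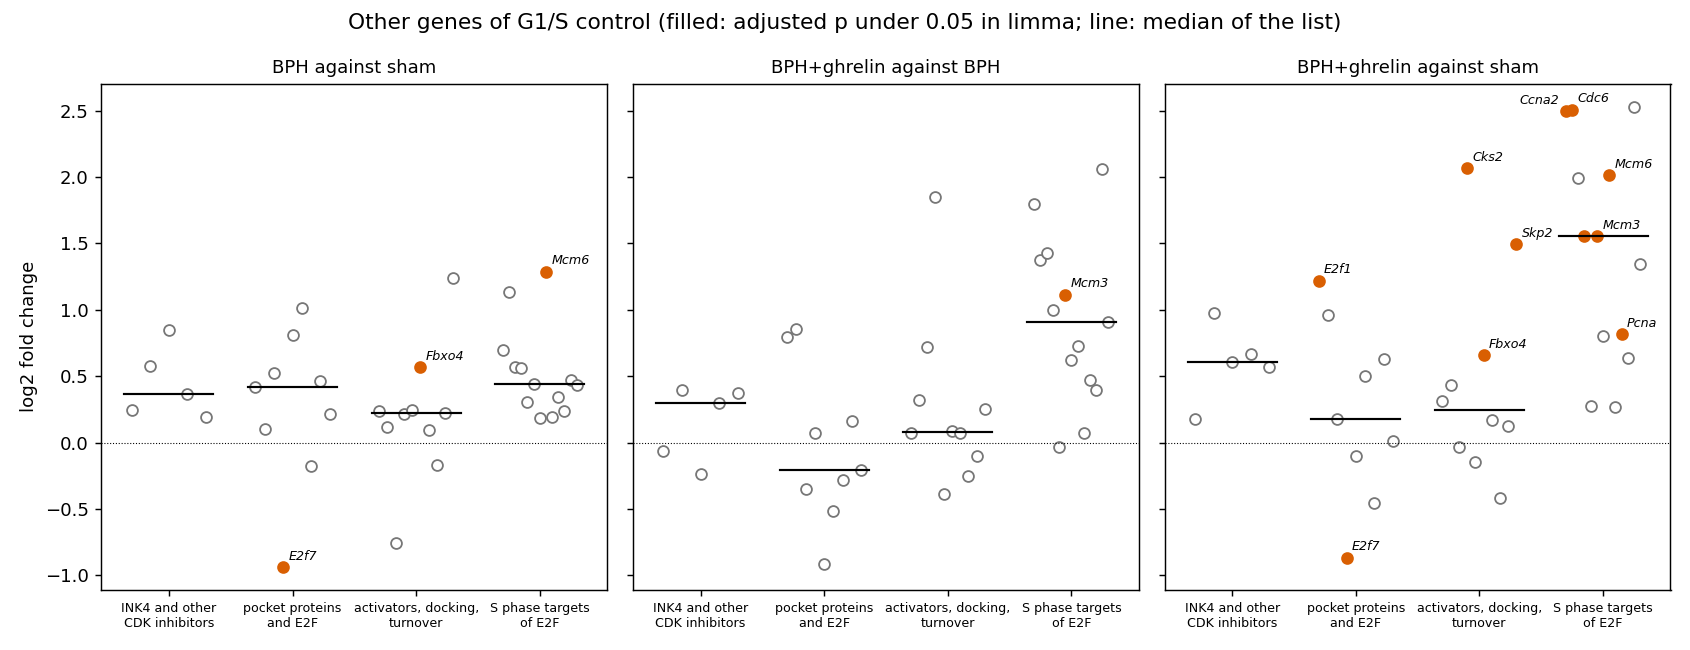
Log2 fold change (vertical axis) of 37 other G1/S genes in 4 lists, each point a gene, filled where the adjusted p in limma was under 0.05, with the median of each list as a line and names at the filled points that the text describes. The median of the S phase targets was 0.44, 0.91 and 1.56 in the 3 comparisons, and 3, 1 and 11 genes passed.

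Markers of cell types moved with the groups as well, and their part in the results above was not tested. Compared to BPH, summed signals in BPH+ghrelin did not overlap for 6 macrophage markers (3294 to 3395 against 4244 to 6011, with 2 of 6 genes called lower), 7 measured lymphocyte markers (352 to 374 against 463 to 1441, with Ptprc called lower) and 2 basal cell markers (625 to 692 against 740 to 861). Of the defining lymphocyte markers, Cd3e and Cd79b were well above background on 1 and 0 of 9 arrays. Smooth muscle markers were lower in BPH+ghrelin in 6 of 6 genes (1 called), with overlapping sums (16705 to 18362 against 17406 to 33712), and markers of nerve and Schwann cells overlapped as well (2803 to 6003 against 754 to 2995). Compared to sham, BPH did not overlap for basal (407 to 603 in sham), lymphocyte (5336 to 25619 in sham), secretory prostate (284825 to 295003 in sham, 215362 to 247291 in BPH) and seminal vesicle markers (90188 to 157603 in sham, 713 to 28272 in BPH, 545 to 3880 in BPH+ghrelin). The lymphocyte difference to sham was carried by 1 gene, Cd52 (mean log2 signal 13.61 in sham, 7.79 in BPH). Without it, a choice made after its values were seen, the sum of the other 6 was 473 to 622 in sham, 436 to 587 in BPH and 316 to 357 in BPH+ghrelin. Among the secretory markers, Pbsn was called lower (-2.65) and Krt8 called higher (0.96) in BPH against sham. Between BPH+ghrelin and sham, sums did not overlap in 7 of 10 lists. Endothelial (750 to 878 against 1125 to 1425), macrophage (3294 to 3395 against 4302 to 5335), lymphocyte, secretory prostate (224629 to 250357) and seminal vesicle sums were lower in BPH+ghrelin, and basal and nerve sums (2803 to 6003 against 1125 to 1490) were higher. Sums of smooth muscle, fibroblast and striated muscle markers overlapped there. Sums of fibroblast, endothelial and striated muscle markers overlapped between BPH and each of the other groups, as did smooth muscle, macrophage and nerve markers between BPH and sham, and secretory prostate and seminal vesicle markers between BPH and BPH+ghrelin. Within lists whose sums overlapped, Lum, a fibroblast proteoglycan, was called lower in BPH+ghrelin against BPH (-1.65, adjusted p 0.024) and against sham (-1.42, adjusted p 0.0145). The smooth muscle myosin Myh11 was called lower in both (-0.96 and -1.07), and the muscle creatine kinase Ckm was called lower than in sham in BPH (-1.90) and BPH+ghrelin (-1.96).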

How the data were processed

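Agilent one-colour arrays of rat prostates, 3 per group, were used, with groups taken from the sample labels. The intensities deposited by the authors came from Agilent Feature Extraction 11.0.1.1, after background subtraction, on a linear scale. A table of log2 values deposited by the authors, quantile normalized with GeneSpring GX, was used only as an alternative. Outlier spots (313 to 741 per array) were removed, spots of a probe were averaged, 11 probes without a remaining spot were dropped, and log2 intensities were quantile normalized over 9 arrays. Accessions of 17998 probes (59.3%) were matched to RefSeq symbols (GRCr8), while the array annotation belongs to another assembly, rn4. Probes not well above background on 3 or more of the 6 arrays in a comparison were left out, and the brightest remaining probe stood for a gene. All 9 arrays were fitted in limma 3.58.1 (R 4.3.3; lmFit, eBayes, two-sided, Benjamini-Hochberg, threshold 0.05), which was tested on simulated data. The study itself ran no test on its arrays. With 3 arrays per group, the smallest p of an exact permutation test is 0.1, and p-values measure only the spread between these animals. Alternatives were 75th percentile scaling, normexp (offset 50, on median signals, as no mean signal is in the files used), no filter, the deposited table, the mean of probes, replicate number or shared scan as a block, each array left out, and a 2-fold criterion. Named genes were all 10 members and, of the other lists, those passing the threshold, of which 1 is not reported here. Members and lists were chosen with earlier results of these data known. The number of arrays limits the precision.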

Additional observations from a re-analysis of the deposited data

How the results depend on the processing

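Of the recomputed log2 fold changes of single genes, 446 kept their direction and side of the threshold, 120 lost and 5 gained an adjusted p under 0.05 in limma, and 14 changed sign; unless stated, the cause was not tested. The number of the 10 genes called was 1 in BPH against sham. It was 0 without the filter on dim probes (more genes tested), 0 with the replicate block and 0 with the scan block. With each array left out it was 0 to 2. Of all 19552 genes, 243 were called with the replicate block, 2 with the scan block and 119 to 3071 with each array left out. Without the filter, 533 of 26905 genes were called. In BPH+ghrelin against BPH the number of the 10 genes called was 0. It was 1 by the 2-fold criterion, 1 with 75th percentile scaling, 1 with normexp and 0 to 1 with each array left out. Of all 19749 genes, 515 were called with 75th percentile scaling, 398 with normexp and 3 to 398 with each array left out. With the mean of probes 268 were called, with the replicate block 17 and with the scan block 2. In BPH+ghrelin against sham the number of the 10 genes called was 3. It was 1 with the replicate block, 0 with the scan block and 0 to 4 with each array left out. Without the filter on dim probes, Ccne1 and Cdk6 were still called there, and Ccnd2 was not. Of all 19197 genes, 461 were called with the replicate block, 84 with the scan block and 222 to 1926 with each array left out. Without the filter, 803 of 26905 genes were called. Of the other G1/S genes, the calls were 3, 1 and 11. In BPH against sham they were 0 without the filter, 0 with the replicate block, 0 with the scan block and 0 to 6 with each array left out. In BPH+ghrelin against BPH they were 6 by the 2-fold criterion, 3 with 75th percentile scaling, 0 with the mean of probes, 0 with the replicate block, 0 with the scan block and 0 to 3 with each array left out. In BPH+ghrelin against sham they were 7 without the filter, 3 with the replicate block, 0 with the scan block and 2 to 11 with each array left out. Sign changes with the mean of probes were -0.14 for Cdkn1c in BPH against sham. With the scan block, in which BPH and sham are linked only through BPH+ghrelin, they were -0.16 for Ccnd2, -0.36 for Ccne1 and -0.25 for Cdkn1c in BPH against sham, and 0.13 for Cdk4 in BPH+ghrelin against BPH. Sham replicate 3, alone in its scan, does not enter the differences of the scan-block fit. With each array left out, ranges that crossed 0 in BPH against sham were -0.12 to 0.55 for Ccnd1, -0.043 to 0.20 for Ccnd2 and -0.13 to 0.82 for Ccne1. In BPH+ghrelin against BPH they were -0.084 to 0.25 for Ccne2 and -0.076 to 0.28 for Cdk2, and in BPH+ghrelin against sham -0.49 to 0.049 for Cdkn1b and -0.25 to 0.0081 for Cdkn1c. None of the 10 genes changed sign with 75th percentile scaling, normexp or the deposited table, although 75th percentile scaling moved the median of all genes in BPH against sham from 0.039 to -0.087. Replicate numbers did not pair the samples: deviations of arrays with the same number correlated at -0.14 to 0.26, so that the replicate block is no test of pairing. Of the 3 members called against sham in BPH+ghrelin, it kept Cdk6. Signals close to background limit Ccne2, which was not called, and several called genes, whose differences shrink with normexp: E2f7 (-0.20) and Mcm6 (0.58) in BPH against sham, where both lost their calls, and E2f7 (-0.18), Skp2 (0.20), Cdc6 (0.67) and Mcm6 (1.00) in BPH+ghrelin against sham, where E2f7 and Skp2 lost theirs. Of 13 alternatives, the calls of the named genes of the other lists against sham in BPH+ghrelin held in 2 (Skp2) to 12 (Mcm3, Mcm6).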
